A study of Thermothelomyces thermophilus ATCC 42464 with 3 samples.

Results

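The relative output of 8 genes for cellulose breakdown was examined in Thermothelomyces thermophilus ATCC 42464 (also called Myceliophthora thermophila), a thermophilic filamentous fungus. The 8 genes were taken by locus tag from the 9292 genes of the deposited table, and all 8 were present and tested. They encode 2 cellobiohydrolases, 3 endoglucanases, 2 beta-glucosidases and 1 cellobiose dehydrogenase. These enzyme classes and the names cbh-1 and cbh-2 come from published work on this species, whereas the symbol cbdA comes from the RefSeq gene table. 3 RNA sequencing libraries were available, with 20166880 to 21827636 reads counted on genes. 2 libraries were labelled wild type (WT). The third came from the same strain with the genotype given as a deletion of MYCTH_90344, and is called the library labelled deletion. Per the labels' protocols, every culture had 16 h in 2% glucose at 45 °C, was washed and then had 4 h in 2% Avicel, a purified microcrystalline cellulose. Whether the WT libraries were grown as separate cultures is not stated in the labels. The p-values below thus reflect only how far the 2 WT libraries differed, possibly for technical reasons, and the single library labelled deletion adds no spread.

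The gene named in the genotype label went against that label. MYCTH_90344 stood at 8.80 and 10.2 FPKM in the WT libraries and at 291 FPKM in the library labelled deletion, up by 4.95 on the log2 scale (SE 0.09, edgeR adjusted p = 2.83e-30). Every direction below is therefore a direction in a library known by its label alone. FPKM (fragments per kilobase of gene, scaled to library size) divides a count by gene length, so that the mRNAs of different genes can be compared as approximate molar amounts, as far as the authors' gene lengths are right.

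Cellulose is attacked by enzymes that divide the work. Cellobiohydrolases run along a cellulose chain from its ends and release cellobiose, the disaccharide of glucose, while endoglucanases cut within the chain and open new ends. Beta-glucosidases split cellobiose to glucose, which relieves the inhibition of the cellobiohydrolases by their product. Cellobiose dehydrogenase oxidises cellobiose instead and can pass the electrons to copper-containing monooxygenases of family AA9, which break cellulose by oxidation.

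In WT on Avicel the mix was dominated by 3 mRNAs, with cbh-1 at the head. In the library labelled deletion the summed level of the 8 mRNAs fell to 32.0% of the WT mean, and the cellobiohydrolases made up 56.0% of what remained, against 57.5% in WT. Within the mix, cbh-1 lost part of its lead over cbh-2 and MYCTH_86753, and cbdA and MYCTH_66804 fell further than the rest. The order of the 8 genes by FPKM was the same in both WT libraries. It differed in the library labelled deletion only in the place of cbdA, which went from the fourth to the sixth.

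The cellobiohydrolases had the highest summed level of the 4 enzyme classes. cbh-1 (MYCTH_109566) stood at 9276 and 9154 FPKM in the WT libraries and at 2389 FPKM in the library labelled deletion. The gene cbh-2 (MYCTH_66729), whose counterpart in Trichoderma reesei works from the opposite chain end to the first cellobiohydrolase, stood at 5142 and 5307 FPKM in WT and at 2113 FPKM in the library labelled deletion. Both genes were far lower there than in either WT library, but cbh-1 was reduced to 25.9% of its WT mean and cbh-2 to 40.4%.

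Among the endoglucanases 1 gene far exceeded the others. MYCTH_86753 stood at 6101 and 6083 FPKM in WT and at 2292 FPKM in the library labelled deletion. MYCTH_76901 stood at 1268 and 1105 FPKM in WT and at 375 FPKM. MYCTH_111372 stood at 776 and 718 FPKM in WT and at 194 FPKM. For each of these genes, as for the other 5, the library labelled deletion lay below both WT values, which was so for 44.7% of all tested genes. In all 3 libraries MYCTH_86753 supplied more mRNA than cbh-2.

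The cellobiose-using enzymes spanned the widest range of levels. The beta-glucosidase gene MYCTH_115968 stood at 977 and 981 FPKM in WT and at 338 FPKM in the library labelled deletion. The second beta-glucosidase gene, MYCTH_66804, was scarce, with 15.3 and 13.5 FPKM in WT and 2.39 FPKM in the library labelled deletion, the last from 100 reads. cbdA (MYCTH_111388), the cellobiose dehydrogenase gene of the set, stood at 1680 and 1639 FPKM in WT and at 332 FPKM. In WT cbdA mRNA exceeded that of MYCTH_115968, and in the library labelled deletion the 2 were nearly equal.

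**Figure D1:**
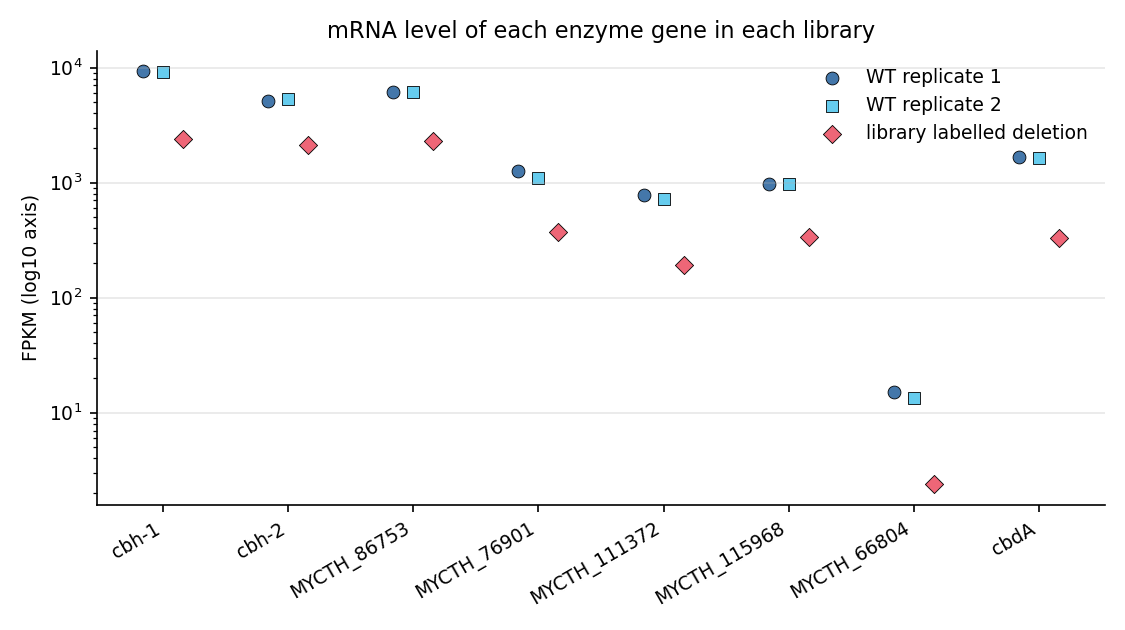
FPKM of the 8 genes (log10 axis) in the WT libraries (circle, replicate 1; square, replicate 2) and the library labelled deletion (diamond), 1 point per library. For each gene the WT points nearly coincide and the diamond lies below them, by the widest gap for MYCTH_66804.

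All 8 genes passed the edgeR quasi-likelihood test downwards, with adjusted p between 1.97e-22 for cbdA and 9.12e-15 for MYCTH_66804. In the same fit 27.6% of all 8340 tested genes passed downwards, and 6.65% passed and were lower by at least 2-fold, as all 8 were. The log2 fold changes lay between -1.30 (SE 0.07) for cbh-2 and -2.58 (SE 0.17) for MYCTH_66804, with a median of -1.80 against a median of 0.00 over all tested genes. A log2 fold change below that of MYCTH_66804 was found in 1.19% of tested genes, below that of cbdA in 1.61% and below that of cbh-2 in 5.14%. Abundant genes as a group were somewhat lower in this library. Of the 321 tested genes with a WT mean of at least 500 FPKM, 14.6% were lower by at least 2-fold and the median log2 fold change was -0.37. In bulk RNA, fewer cells that express these genes and less mRNA per cell cannot be told apart.

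Places among all 9292 genes were examined next, rank 1 being the highest FPKM. cbh-1 ranked 4 in each WT library and 37 in the library labelled deletion. MYCTH_86753 ranked 9 in each WT library and 39, and cbh-2 ranked 13 and 12 in WT and 47. None of the 3 remained among the 20 most abundant mRNAs, where all 3 had been in both WT libraries, but all 3 were still among the 100 most abundant. Of the 20 most abundant genes in WT, 11 kept a place in the top 20 of the library labelled deletion.

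The other 5 genes dropped further down the list. cbdA ranked 91 and 90 in WT and 453 in the library labelled deletion. MYCTH_76901 went from 139 and 156 to 405, MYCTH_115968 from 179 and 171 to 445, and MYCTH_111372 from 220 and 230 to 696. MYCTH_66804 lay near the middle of the table in WT, at 4860 and 5122, and at 7444 in the library labelled deletion. The 3 leading genes lost 30 to 35 places and the others 258 to 2454, although their fold changes were closer together, so places lost do not measure the size of a fall. At rank 4 the libraries were alike, with 9276, 9154 and 9125 FPKM, so nearly the same level was needed for that place in each.

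**Figure D2:**
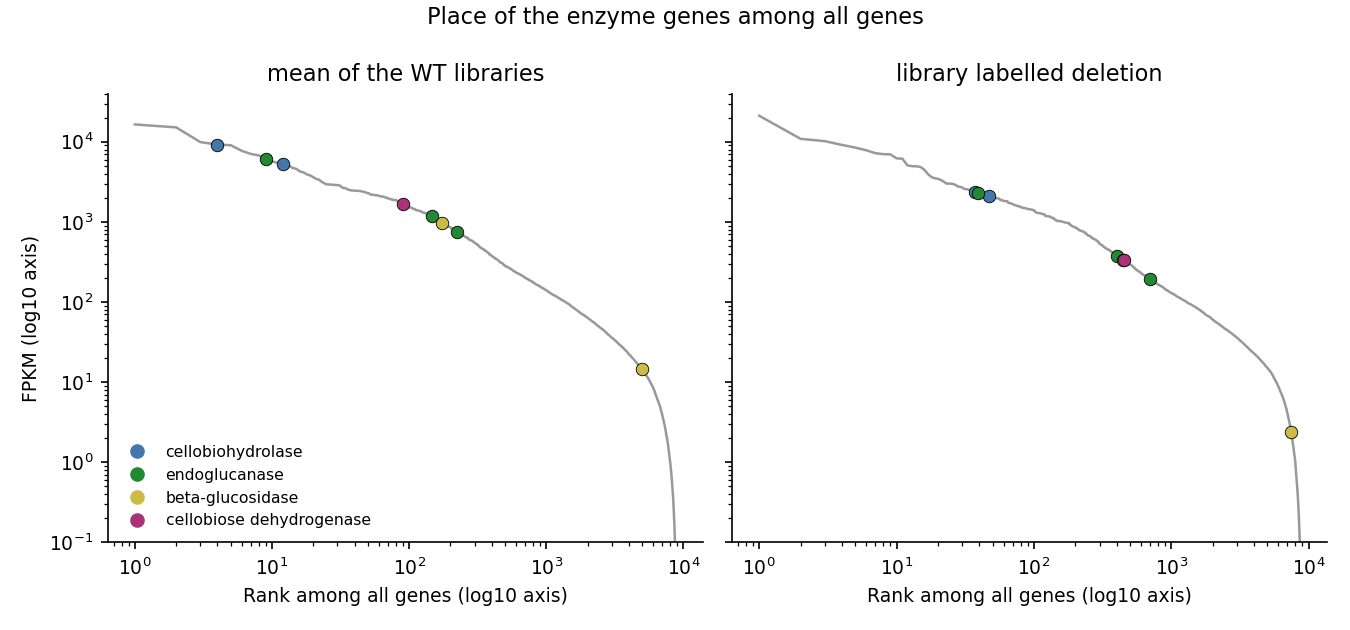
FPKM of all genes against their rank (both axes log10) for the mean of the WT libraries (left) and the library labelled deletion (right), with the 8 genes as coloured points by enzyme class. The 3 leading points move from ranks 4, 9 and 12 to ranks 37, 39 and 47, and the points for MYCTH_115968 (rank 445) and cbdA (rank 453) overlap on the right.

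The pool of 8 mRNAs was then followed as a whole. Its summed level was 25235 and 25001 FPKM in WT and 8036 FPKM in the library labelled deletion, a 3.13-fold fall with a log2 change of -1.64. This was 2.85% ± 0.0377 (SD, n = 2) of the summed FPKM of all genes in WT and 0.949% in the library labelled deletion. The WT values differed by far less than this fall, but the library labelled deletion had no replicate and the sum was not tested.

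By enzyme class the cellobiohydrolase share fell slightly, the endoglucanase share rose beyond both WT values and the cellobiose dehydrogenase share fell. Cellobiohydrolase mRNA made up 57.5% ± 0.497 (SD, n = 2) of the pool in WT and 56.0% in the library labelled deletion. Endoglucanase mRNA made up 31.9% ± 0.459 (SD, n = 2) in WT and 35.6%. Thus 1 cellobiohydrolase mRNA was matched by 0.556 ± 0.0128 endoglucanase mRNAs (SD, n = 2) in WT and by 0.635 in the library labelled deletion. Beta-glucosidase mRNA, nearly all of it from MYCTH_115968, made up 3.95% ± 0.0340 (SD, n = 2) in WT and 4.24%. For every 100 cellulase mRNAs there were 4.42 ± 0.0361 beta-glucosidase mRNAs (SD, n = 2) in WT and 4.62 in the library labelled deletion. Cellobiose dehydrogenase moved most in proportion, from 7.39 ± 0.0832 per 100 cellulase mRNAs (SD, n = 2) to 4.50. Each class ratio in the library labelled deletion lay outside the 2 WT values, and these ratios were not tested.

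Within the classes the shares shifted more. cbh-1 held 36.8% and 36.6% of the pool in WT and 29.7% in the library labelled deletion, a change of -6.95 percentage points from the WT mean. cbh-2 held 20.4% and 21.2% in WT and 26.3%, and MYCTH_86753 held 24.2% and 24.3% in WT and 28.5%. The gap between cbh-1 and the 2 genes that follow it therefore closed: 0.554 and 0.580 mRNAs of cbh-2 per mRNA of cbh-1 in WT became 0.884, and 0.658 and 0.665 mRNAs of MYCTH_86753 became 0.959. The 3 genes together held 81.7% ± 0.607 (SD, n = 2) of the pool in WT and 84.6% in the library labelled deletion.

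The smaller components did not move together. cbdA held 6.66% and 6.56% in WT and 4.13% in the library labelled deletion. MYCTH_76901 held 5.02% and 4.42% in WT and 4.67%, a value inside the WT range. MYCTH_115968 held 3.87% and 3.92% in WT and 4.21%, and MYCTH_111372 held 3.07% and 2.87% in WT and 2.41%. MYCTH_66804 held 0.0605% and 0.0541% in WT and 0.0297%. By reads, its part of the pool was 0.0405% in the library labelled deletion (95% Wilson interval 0.0333 to 0.0493%, counting error only) and 0.0807% and 0.0720% in WT.

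**Figure D3:**
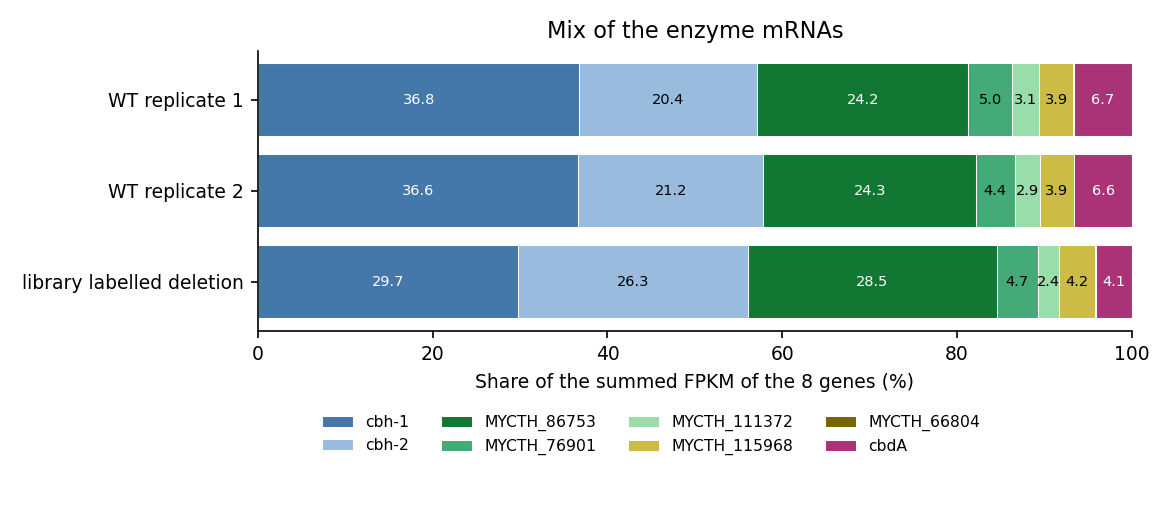
Share of each gene in the summed FPKM of the 8 genes, as 1 bar per library; shares above 2.3% are printed in the bar, and MYCTH_66804 is too small to be seen. The WT bars are nearly alike, and in the library labelled deletion cbh-1 and cbdA take less and cbh-2 and MYCTH_86753 more.

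A change of the mix was tested apart from the fall in output by scaling each library to the summed FPKM of the 8 genes and refitting all genes with edgeR. The share of cbh-2 rose, with a log2 change relative to the pool of 0.34 (SE 0.07, edgeR adjusted p = 4.00e-05), and so did that of MYCTH_86753, by 0.23 (SE 0.07, edgeR adjusted p = 0.00179). The shares of 4 genes fell. The change was -0.95 (SE 0.17, edgeR adjusted p = 1.76e-05) for MYCTH_66804 and -0.68 (SE 0.07, edgeR adjusted p = 1.22e-09) for cbdA. It was -0.30 (SE 0.07) for cbh-1 and -0.30 (SE 0.07) for MYCTH_111372, with edgeR adjusted p of 0.000164 and 0.000338. MYCTH_115968 (0.11, SE 0.07) and MYCTH_76901 (-0.02, SE 0.08) did not pass, with edgeR adjusted p of 0.120 and 0.842. Shares of the same pool depend on each other, so a lower share of cbh-1 goes with a higher summed share of the other genes.

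In that fit 92.1% of all tested genes passed upwards and 1.65% downwards, since the pool itself fell and the median gene stood 1.64 higher relative to it on the log2 scale. With so many genes passing, the adjustment hardly changed the p-values of this fit. The edgeR quasi-likelihood p went from 0.000141 to 0.000164 for cbh-1 and from 0.00159 to 0.00179 for MYCTH_86753. The calls rest on the closeness of the WT pair, whose biological coefficient of variation (BCV) was 0.0484. When a BCV of 0.2 was imposed, only MYCTH_66804 of the 8 still passed (edgeR likelihood ratio test, adjusted p = 0.0188). Of all tested genes 1.15% then passed downwards and 89.9% upwards. When 0.1 was imposed, only MYCTH_66804 and cbdA of the 8 passed (edgeR likelihood ratio test, adjusted p = 5.15e-05 and 0.000226). Of all tested genes 1.62% passed downwards and 92.8% upwards at that BCV. The calls of lower output were kept at both imposed BCVs, 0.1 and 0.2, and no larger BCV was run. At 0.1, 18.8% of all tested genes passed downwards against WT. All 8 genes passed downwards against WT with a BCV of 0.2, with edgeR adjusted p up to 0.00738 (5.98% of all tested genes did).

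**Figure D4:**
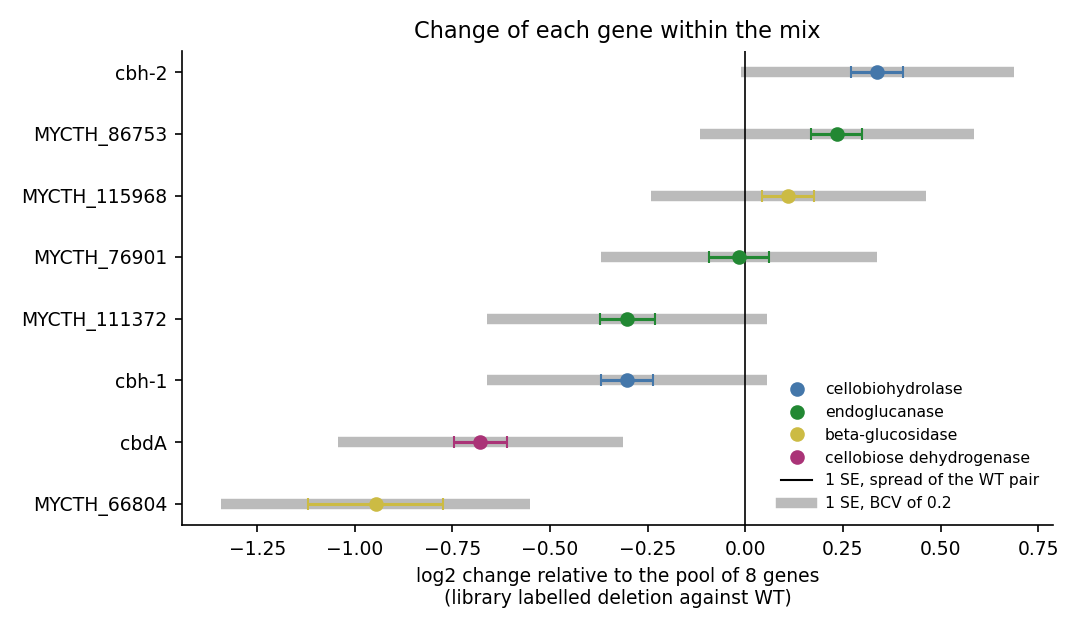
log2 change of each gene relative to the summed FPKM of the 8 genes, library labelled deletion against WT, coloured by enzyme class. Thin bars are 1 SE from the spread of the WT pair and grey bars 1 SE with an assumed BCV of 0.2; among the 8 genes cbh-2 lies farthest to the right at 0.34 and MYCTH_66804 farthest to the left at -0.95.

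The ratios between single genes were also read directly. Of the 28 pairs among the 8 genes, 12 changed their FPKM ratio by over 1.5-fold. Of these 12, 10 involved cbdA or MYCTH_66804, the members with the largest falls. Among the 15 pairs with neither gene, 2 changed by over 1.5-fold. Since these genes were set apart by their falls in the same data, fewer changed pairs among the rest follow from that choice. The widest change was in cbh-2 to MYCTH_66804, from 337 and 393 in WT to 885, or 2.43-fold. In 27 of the 28 pairs the ratio in the library labelled deletion lay outside both WT ratios. The exception was cbh-1 to MYCTH_111372, which differ widely in level, at 12.0 and 12.7 in WT and 12.3 in the library labelled deletion. The WT ratios of a pair lay close together, and the share of all gene pairs outside them was not computed. Among the 7 genes with a WT mean of at least 500 FPKM, 6 of 21 pairs (28.6%) changed by over 1.5-fold, beside 52.9% of the 51360 pairs of tested genes above that level. Pairs share genes and are not independent, and no test was made. Between the WT libraries no pair differed by more than 1.18-fold.

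cbdA and MYCTH_115968, whose products use the same substrate, changed order. There were 1.72 and 1.67 mRNAs of cbdA per mRNA of MYCTH_115968 in WT and 0.982 in the library labelled deletion. The balance between the beta-glucosidase genes also widened, from 64.0 and 72.6 mRNAs of MYCTH_115968 per mRNA of MYCTH_66804 in WT to 142.

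Other genes of cellulose use were set beside the 8. The list, taken by locus tag from published work on this species, held 4 AA9 monooxygenases, 2 cellodextrin transporters, which carry short cellulose fragments into the cell, and 3 regulators. 7 of the 9 genes passed the edgeR test downwards (27.6% of all tested genes) and 1 upwards (28.1%). MYCTH_80312, an AA9 monooxygenase, stood at 1529 and 1439 FPKM in WT and at 75.9 FPKM in the library labelled deletion, which is -4.28 as a log2 fold change (SE 0.09, edgeR adjusted p = 4.32e-28). This was a larger fall than that of any of the 8 genes, whereas MYCTH_85556, another monooxygenase of that family, fell by 0.50 on the log2 scale (SE 0.07, edgeR adjusted p = 3.36e-07), less than any of them. The remaining monooxygenases, MYCTH_100518 and MYCTH_92668, had log2 fold changes of -2.60 and -2.50 and passed.

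The transporter gene MYCTH_114107 stood at 1047 and 1037 FPKM in WT and at 380 FPKM, a log2 fold change of -1.45 (SE 0.07), which lies within the range of the 8 genes. The other, MYCTH_43941, was scarce, at 5.22 and 4.92 FPKM in WT and 3.24 FPKM, and its call (edgeR adjusted p = 0.0218) was lost with DESeq2 (adjusted p = 0.209). Among the regulators, the activator gene clr-2 (MYCTH_38704) stood at 21.0 and 22.5 FPKM in WT and at 23.1 FPKM and did not pass (edgeR adjusted p = 0.429). The xylanase regulator gene xyr-1 (MYCTH_2310145) passed upwards with a log2 fold change of 0.60, and cre-1 (MYCTH_2310085), a mediator of glucose repression, passed downwards with -0.31. With a BCV of 0.2, 4 of the 9 genes passed, all downwards: MYCTH_80312, MYCTH_100518, MYCTH_92668 and MYCTH_114107. Of all tested genes 5.98% passed downwards and 6.21% upwards with that BCV.

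**Figure D5:**
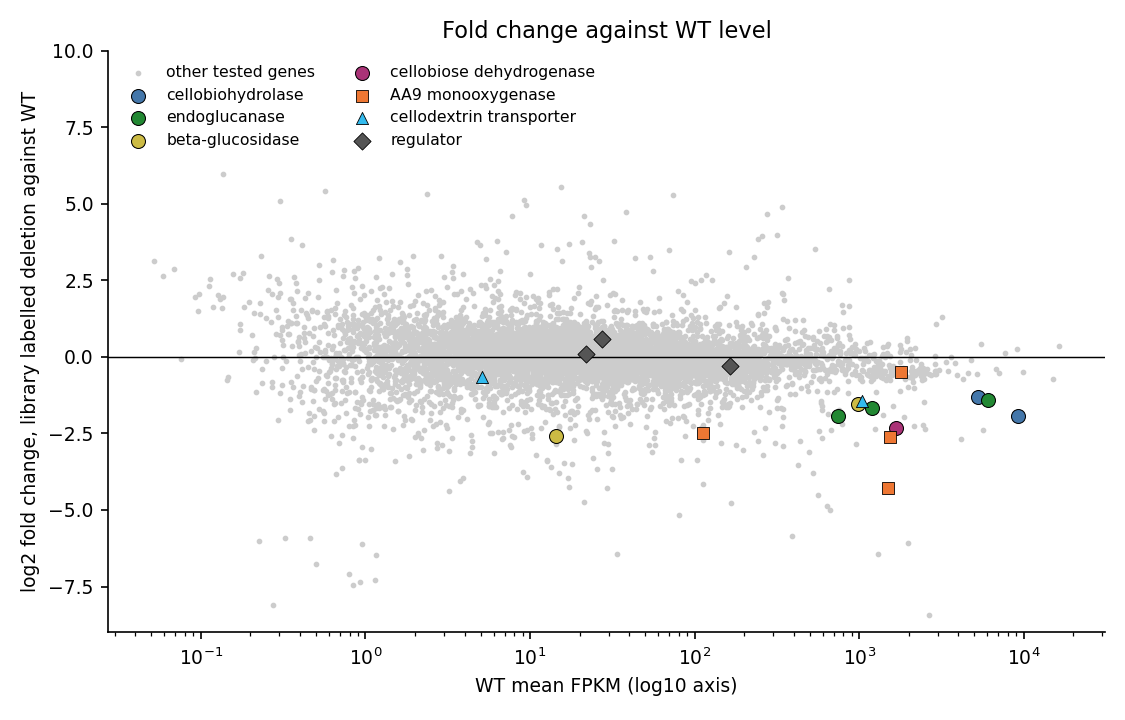
log2 fold change of the library labelled deletion against WT plotted against the WT mean FPKM (log10 axis) for all tested genes (grey), the 8 genes (circles by enzyme class) and the 9 other genes of cellulose use (squares, triangles and diamonds). The 8 circles lie between -1.30 and -2.58, 7 of them among the abundant genes at the right.

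Genes whose profile over the 3 libraries lay nearest to that of cbh-1 were sought among the 1376 other genes with a WT mean of at least 100 FPKM, by Euclidean distance of log2(FPKM + 1) from each gene's mean. The nearest was MYCTH_62925, at 345 and 342 FPKM in WT and 87.6 FPKM in the library labelled deletion (distance 0.0105). MYCTH_112471 followed, at 1427 and 1342 FPKM in WT and 370 FPKM (distance 0.0614), and then the endoglucanase gene MYCTH_111372 (distance 0.0654). cbh-2, the other cellobiohydrolase gene of the set, came in place 66. With 3 libraries, of which 2 are nearly alike, this likeness amounts to an equal fold change and little more.

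The 8 genes are scattered in the genome. In the gene order of the RefSeq assembly ASM22609v1 at least 60 genes lay between any pair of them. Of the 27 tested genes among the 2 nearest on each side of every member, 3 passed the edgeR test and were lower by at least 2-fold (6.65% of all tested genes), and 4 passed and were higher by at least 2-fold (5.98% of all tested genes). The 3 lower genes, which like the 4 higher ones are named here after their values were seen, were MYCTH_2122637 and MYCTH_2053048 beside MYCTH_86753, and MYCTH_2305608 beside MYCTH_66804. The higher ones were MYCTH_2299975 beside cbh-2, MYCTH_2296191 beside MYCTH_76901, and MYCTH_80276 and MYCTH_2305394 beside MYCTH_111372. Lower and higher neighbours were thus both found.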

How the data were processed

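Per the file headers, the deposited table gave raw read counts per gene and FPKM for 9292 genes in each of 3 libraries. TopHat2 2.0.8b and HTSeq 0.5.4p2 are the tools listed, per the submitters' processing notes. The genome build was not given in the sources used here, nor were the annotation and strand setting, so overlapping genes may share reads. The deposited FPKM were proportional to counts within each gene, with the same library factor for every gene (largest relative deviation 2.90e-08). They were used for levels, ranks, shares and ratios without a test, since comparing genes needs a value per length. Tests on counts used edgeR 4.0.16 under R 4.3.3 (filterByExpr, 8340 genes tested and 952 left out; TMM; glmQLFit and glmQLFTest; Benjamini-Hochberg threshold 0.05). SE is the log2 fold change over the square root of F. Only the WT pair informed the spread (residual degree of freedom 1, prior degrees of freedom 30.0), and the single library was assumed to vary alike. For the mix, library sizes were replaced by the summed FPKM of the 8 genes on the count scale. The functions were tested on counts simulated with a BCV of 0.05 in all 3 libraries, so a single library that varies more was not covered. The error limit set there for changes relative to the pool was not applied to MYCTH_66804. DESeq2 1.42.0, other scalings, filters, pools and an assumed BCV were alternatives. A floor of 3 counts was 0.137 to 0.149 counts per 1000000. Genes named were the members, the list of 9, MYCTH_90344 and the 3 genes nearest to cbh-1, and 7 neighbours of members named after their values were seen. Members, lists and tests were chosen with earlier results of these data known. The planned search for relatives of the members by protein sequence was not run, because no protein table was used here. All 9292 locus tags matched the RefSeq gene table.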

Additional observations from a re-analysis of the deposited data

How the results depend on the processing

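All 8 members passed downwards under every scaling, filter, tool and assumed BCV that was run. The share of all tested genes that passed downwards was 27.6% in the main fit and 20.6% with DESeq2. With the other scalings and without the filter it lay between these values. It was 18.8% with a BCV of 0.1, 5.98% with a BCV of 0.2, and 28.6% in the likelihood ratio test with the spread estimated from the WT pair. Against 6 members with a changed share of the pool (2 higher, 4 lower), a BCV of 0.2 left 1 and a BCV of 0.1, added after the data were seen, left 2. Both used the likelihood ratio test. Of all tested genes 92.1% passed upwards and 1.65% downwards in the main fit. These shares were 89.9% and 1.15% with a BCV of 0.2, and 92.8% and 1.62% with 0.1. The likelihood ratio test with the spread estimated from the WT pair was also added after the data were seen. It gave the 6 calls in the same directions, beside 93.1% of all tested genes upwards and 1.80% downwards. The other pools, the lack of a filter and DESeq2 gave 5 to 7, beside 87.4% to 94.0% of all tested genes upwards and 1.13% to 1.93% downwards. The choice of pool decided some single calls. Relative to the geometric mean, or to cbh-1 alone (added after the data were seen), MYCTH_76901 turned from -0.02 to 0.18 and 0.29 (edgeR adjusted p = 0.00825 and 0.00189). MYCTH_111372 lost its call against the geometric mean (-0.11, edgeR adjusted p = 0.116) and stood at 0.00096 against cbh-1. MYCTH_115968 gained one in both (0.30 and 0.41). MYCTH_86753 lost its call in a pool without cbh-1 (0.08, edgeR adjusted p = 0.253). cbdA and MYCTH_66804 fell and cbh-2 rose in all of these pools, but by amounts that varied. Without cbh-1 in the pool, cbh-2 rose by 0.19 (edgeR adjusted p = 0.0163) and cbh-1 stood at -0.45. Against the geometric mean they stood at 0.53 and -0.11. Of the list of 9, 4 passed with a BCV of 0.2 (5.98% of all tested genes downwards and 6.21% upwards). In the main fit 8 passed (27.6% and 28.1%). The log2 change of the summed level was -1.64, and -1.59 as TPM and -1.66 as counts per 1000000. The change in the share of cbh-1 was -6.95 percentage points, and -6.70 by reads. Leaving out a WT library gave -1.65 to -1.64 and -7.02 to -6.88; counts of calls have no such value, since no residual degree of freedom remains. Ranks by read count differed for all 8 genes, such as 2 and 22 for cbh-1. With log2(FPKM + 1) the change of MYCTH_66804 was -2.18. Depth limited MYCTH_66804, with 100 reads in the library labelled deletion. The relatives of the members were not run. No paired analysis was possible because only 1 library was labelled deletion.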
